A study of Mus musculus with 16 samples.

Results

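Ligands of the epidermal growth factor (EGF) family and their ERBB receptors were followed in organoid lines of mouse pancreatic ductal adenocarcinoma. The 9 genes were taken by symbol: the ligands Areg, Ereg, Hbegf, Tgfa, Btc and Epgn, and the receptors Egfr, Erbb2 and Erbb3. They are 9 of the 55487 genes listed, and 8 of the 9 passed the filter on low counts. Lines came from 9 metastases and 7 primary pancreatic tumors of 6 C57BL6/J mice of the KPC model, a genetically engineered model of this cancer. The labels name the model but neither the alleles nor the ages of the mice. Metastasis lines came from the liver of mouse 1, the peritoneum of mice 2, 3 and 4, the diaphragm and lung of mouse 5, and the liver, diaphragm and ovary of mouse 6. Mouse 6 gave tumor replicates 6 and 7, and each other mouse gave 1 tumor line. All lines, metastasis and tumor alike, were cultured in Matrigel in 1 medium that held EGF at 0.05 µg/mL. EGF is a ligand of Egfr, so that receptor was supplied with ligand in every line. The medium also held FGF-10, noggin, gastrin, R-spondin and the TGF-beta receptor inhibitor A83-01. Each sample is 1 line, and organoid cultures hold epithelium without the host's stroma.

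ERBB receptors are tyrosine kinases of the cell surface that pair up when a ligand binds. Egfr binds every ligand measured here, Btc, Hbegf and Ereg also bind Erbb4, Erbb2 has no ligand of its own and serves as the preferred partner, and Erbb3 has a weak kinase, binds neuregulins and passes the signal to PI3-kinase. The ligands are made as membrane proteins and are cut loose by ADAM proteases. In the pancreas, Egfr and its ligand Tgfa are known for their part in the change of acinar cells into duct-like cells.

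Libraries held 24624420 to 49965492 expected counts. Reads of ribosomal RNA, which fall on 5 annotated genes, took 73.2% of the counts in metastasis replicate 4, 30.6% in tumor replicate 2 and at most 19.6% in any other line. Levels are therefore given as coding TPM, the deposited TPM (transcript abundance per length, a scale on which genes can be compared) rescaled to a total of 1000000 over protein-coding genes other than Lars2. Summed epithelial keratin and adhesion markers reached 6131 to 13490 coding TPM in metastasis lines and 5813 to 8877 in tumor lines, and fibroblast markers summed to at most 0.435 and 0.182. The 4 hepatocyte markers, led by Ttr, summed to 0.460 to 13.7 in metastasis lines (median 4.78) and 14.1 to 245.5 in tumor lines (median 183). The 5 duct markers, led by Spp1, summed to 137 to 2093 in metastasis lines (median 511) and 251 to 3380 in tumor lines (median 1627), and the 4 mesothelial markers, led by Msln, had medians of 802 and 550. Tumor replicate 6 stood apart from the other 6 tumor lines, as its Ccng1 level, a p53 target, was 76.1 coding TPM against 365 to 676 in those and 42.4 to 78.9 in metastasis lines. Whether these differences bear on the values below was not tested.

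Over all 16 lines, ordered by mean level, Areg came first at 88.2 ± 38.5 coding TPM (SD, n = 16). It was followed by Hbegf at 54.9 ± 12.3, Erbb3 at 48.4 ± 14.7, Tgfa at 44.4 ± 18.7, Btc at 41.6 ± 25.9, Ereg at 31.5 ± 22.7, Erbb2 at 29.6 ± 5.51, Egfr at 15.4 ± 4.56 and Epgn at 0.213 ± 0.139. The middle of this order is not settled by the data, since Erbb3 exceeded Tgfa in 9 of 16 lines, Tgfa exceeded Btc in 7 and Ereg exceeded Erbb2 in 4. The last steps held in every line, as Erbb2 exceeded Egfr and Egfr exceeded Epgn in 16 of 16. Among the 8 genes other than Epgn, which had 0 counts in some lines, Ereg and Btc varied most, with highest levels 10.3-fold and 8.85-fold above the lowest, and Erbb2 varied least, at 1.96-fold.

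**Figure D1:**
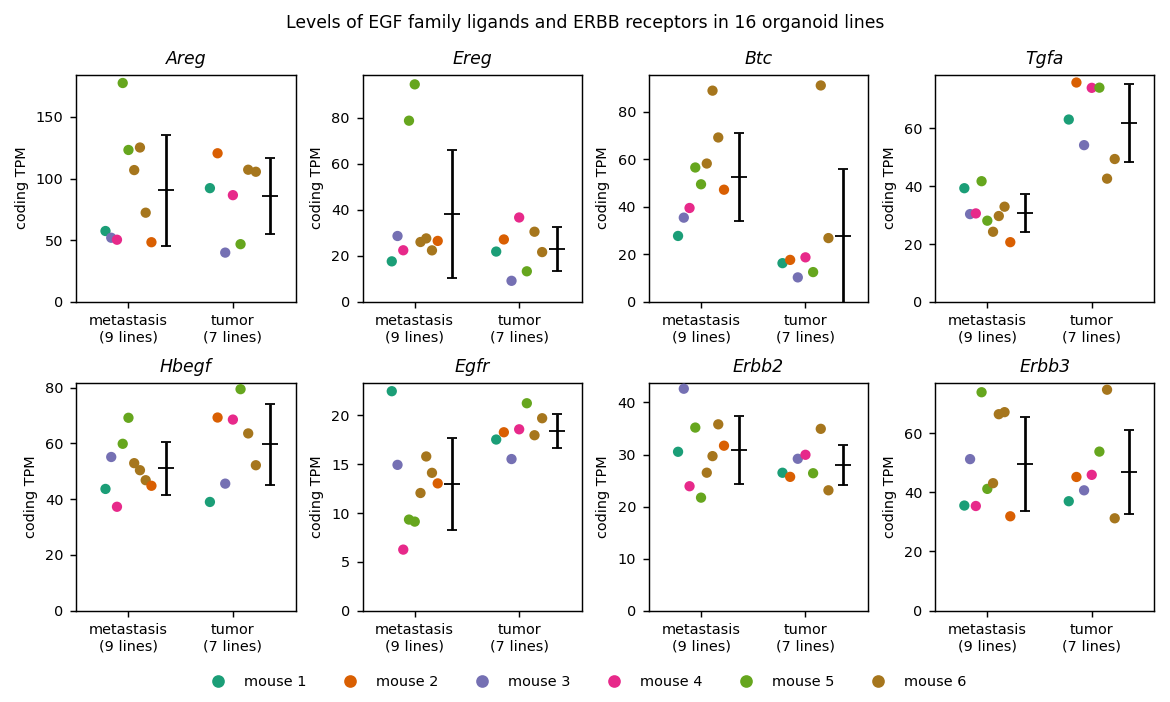
Coding TPM (vertical axis, linear from 0) of 8 genes in each line, metastasis lines left of tumor lines in every panel, coloured by mouse, with bars for the mean ± SD of 9 and 7 lines (the lower end of the Btc tumor bar lies below the axis). Tgfa lies lower in all 9 metastasis lines than in all 7 tumor lines, and Btc higher than in all tumor lines but 1. How many of all genes tested separate in these ways was not counted.

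Between stages, Tgfa was lower, Btc higher and Egfr lower in metastasis lines than in tumor lines of the same mice, and the other 5 genes tested did not pass. Tests were edgeR's quasi-likelihood test with a term for each mouse, adjusted over 15573 genes, with a threshold of 0.05. Of the 8 genes tested, 1 was called higher and 2 lower, against 6.59% and 9.92% of all genes tested. The 8 genes had a median log2 fold change of -0.05, beside -0.02 over all genes tested. In RNA of whole cultures, fewer cells of a type and less RNA per cell cannot be told apart.

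Tgfa encodes transforming growth factor alpha, a ligand of Egfr, and lies at chr6:86195223-86275719 on the plus strand (GRCm38). Its lowest, median and highest levels were 20.6, 30.4 and 41.7 coding TPM in metastasis lines, against 42.6, 63.1 and 75.9 coding TPM in tumor lines. The groups did not overlap, and the closest lines were metastasis replicate 4 and tumor replicate 6. The share of all genes tested whose groups lie apart in this way was not counted. Tgfa averaged 30.8 ± 6.63 coding TPM in metastasis lines (SD, n = 9) and 61.9 ± 13.4 coding TPM in tumor lines (SD, n = 7). The log2 fold change was -0.99 (SE 0.14, edgeR adjusted p = 0.00284), and Tgfa was lower in 6 of 6 mice, as were 13.9% of all genes tested. Within mice 1 to 6, the metastasis minus tumor differences in log2 CPM were -0.72, -1.89, -0.88, -1.16, -1.12 and -0.63. The median log2 fold change of the tested genes on chromosome 6 was 0.01, and 7.33% of the 750 tested genes of the chromosome lay below Tgfa. Tgfa passed in all 34 alternative fits, with log2 fold changes of -1.15 to -0.85. It was -1.05 without tumor replicate 6 and -0.88 without both libraries rich in ribosomal RNA. In fits that leave out the only tumor or metastasis line of a mouse, that mouse no longer enters the contrast. Several of the 34 fits thus repeat nearly the same contrast.

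Btc encodes betacellulin, a ligand of Egfr and Erbb4, and lies at chr5:91357261-91402994 on the minus strand. Metastasis lines held a lowest, median and highest level of 27.7, 49.5 and 88.9 coding TPM, against 10.3, 17.7 and 91.1 coding TPM in tumor lines. Tumor replicate 6 held the highest value of all 16 lines, and the other 6 tumor lines, at most 26.8, lay below every metastasis line. The share of all genes tested that separate once tumor replicate 6 is set aside was not counted. Btc averaged 52.5 ± 18.6 coding TPM in metastasis lines (SD, n = 9) and 27.6 ± 28.5 coding TPM in tumor lines (SD, n = 7). Its log2 fold change was 1.08 (SE 0.29, edgeR adjusted p = 0.0281), and Btc was higher in 6 of 6 mice, as were 11.9% of all genes tested. Differences within mice 1 to 6 were 0.71, 1.40, 1.80, 1.16, 2.08 and 0.56 in log2 CPM. Mouse 6 was split, with 58.2, 88.9 and 69.2 coding TPM in metastasis replicates 6 to 8, between the 26.8 of tumor replicate 7 and the 91.1 of tumor replicate 6. Without tumor replicate 6 the log2 fold change was 1.47 (edgeR adjusted p = 0.000214). Without the mouse term (no replicate block) it was 0.93 and did not pass (adjusted p = 0.143), and it also did not pass without any 1 of tumor replicates 2, 3, 4 and 5 or metastasis replicates 2, 3 and 9 (adjusted p up to 0.0807), nor without both libraries rich in ribosomal RNA (adjusted p = 0.108).

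Egfr encodes the EGF receptor and lies at chr11:16752203-16918158 on the plus strand. Metastasis lines held a lowest, median and highest level of 6.25, 13.04 and 22.5 coding TPM, against 15.5, 18.3 and 21.3 coding TPM in tumor lines. Metastasis lines ranged widely and tumor lines little, and the liver line of mouse 1, metastasis replicate 1, was the highest of all. Egfr averaged 13.01 ± 4.71 coding TPM in metastasis lines (SD, n = 9) and 18.4 ± 1.78 coding TPM in tumor lines (SD, n = 7). The log2 fold change was -0.67 (SE 0.19, edgeR adjusted p = 0.0352), with Egfr lower in 5 of 6 mice. The share of all genes tested that were lower in 5 of 6 mice was not counted. Differences within mice 1 to 6 were 0.18, -0.80, -0.27, -1.39, -1.57 and -0.31 in log2 CPM, so the largest falls were in mice 4 and 5 and mouse 1 went the other way. Egfr passed in 15 of 34 alternative fits, with -0.74 without tumor replicate 6 (edgeR adjusted p = 0.0216). With counts summed per mouse and stage, Egfr had -0.67 and did not pass (edgeR adjusted p = 0.0883). Egfr also did not pass with limma on log2(TPM + 1) or log2(TPM + 0.1) (limma adjusted p = 0.229 and 0.227). It did not pass without any 1 of tumor replicates 2, 3, 4 and 5 or metastasis replicates 2, 3, 4, 5, 6 and 9 (adjusted p up to 0.114), nor without both libraries rich in ribosomal RNA (log2 fold change -0.57, adjusted p = 0.132).

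**Figure D2:**
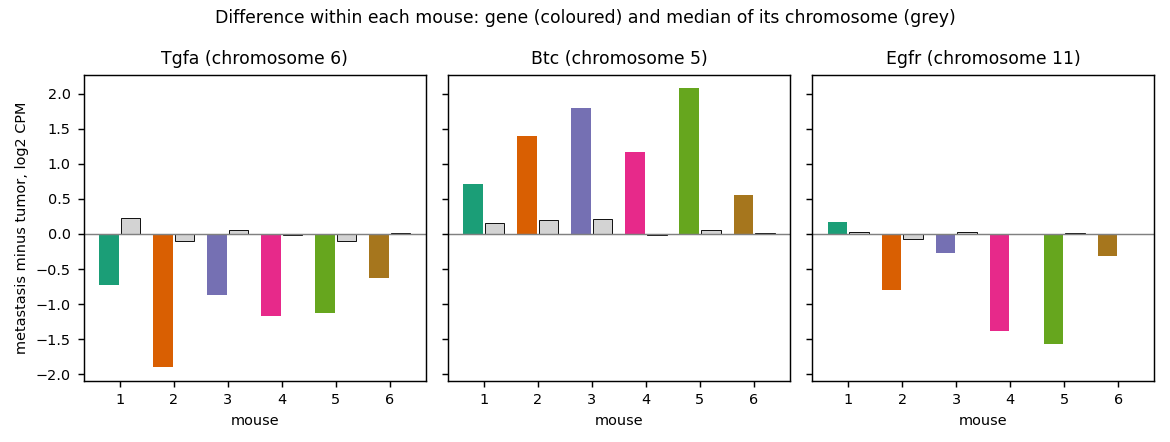
Metastasis minus tumor difference in log2 CPM (vertical axis) within each of 6 mice (horizontal axis) for Tgfa, Btc and Egfr, in coloured bars, beside the median difference of the tested genes on the same chromosome, in grey. Tgfa bars point down and Btc bars up in all 6 mice, Egfr bars point down in 5, and the grey bars stay near 0.

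The promoters of these 3 genes, the ones that passed between stages, are shown as the 250 bases before the RefSeq start (RefSeq, GRCm38.p6), 5′ to 3′ on the gene's own strand. Capitals mark the GC box, GGGCGG or its reverse complement CCGCCC, the site of SP1-type factors. The windows are chr6:86194972-86195221 on the plus strand for Tgfa, chr5:91402995-91403244 on the minus strand for Btc and chr11:16751953-16752202 on the plus strand for Egfr.
Tgfa promoter: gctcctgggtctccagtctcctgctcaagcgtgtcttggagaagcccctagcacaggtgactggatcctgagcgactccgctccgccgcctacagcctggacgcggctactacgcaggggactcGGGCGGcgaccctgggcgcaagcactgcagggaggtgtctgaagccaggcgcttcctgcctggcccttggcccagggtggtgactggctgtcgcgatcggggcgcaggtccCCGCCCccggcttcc
Btc promoter: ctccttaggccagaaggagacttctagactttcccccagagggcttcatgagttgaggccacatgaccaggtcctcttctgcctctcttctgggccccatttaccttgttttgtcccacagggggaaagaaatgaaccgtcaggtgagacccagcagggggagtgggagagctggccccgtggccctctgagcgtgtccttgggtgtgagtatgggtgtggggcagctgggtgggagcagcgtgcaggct
Egfr promoter: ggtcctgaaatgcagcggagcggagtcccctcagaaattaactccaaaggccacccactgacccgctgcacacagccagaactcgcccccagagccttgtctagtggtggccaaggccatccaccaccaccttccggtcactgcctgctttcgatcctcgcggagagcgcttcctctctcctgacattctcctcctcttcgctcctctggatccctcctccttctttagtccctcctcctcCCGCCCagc
Tgfa holds 2 GC boxes, starting 126 and 15 bases before the start, Egfr holds 1 at 9 bases before it, and Btc holds none. Of 32851 mouse promoters of this length, 32.7% hold a GC box. The Tgfa window is 69.2% G or C, the Btc window 59.6% and the Egfr window 60.8%, beside a median of 52.4%. None of these 3 windows matched TATAAA (in 12.4% of promoters), the AP-1 motif TGANTCA (6.75%), the TEAD motif GGAATG (12.6%) or a p53 half-site (7.13%), each searched on both strands. A match is a run of letters, not a bound site. The RefSeq table matched 6 of the 9 genes.

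Areg encodes amphiregulin, a ligand of Egfr, and was the most abundant ligand in most lines. Its lowest, median and highest levels were 48.4, 72.3 and 178 coding TPM in metastasis lines, against 39.9, 92.2 and 121 coding TPM in tumor lines. The groups overlapped widely, and the highest values belonged to both metastasis lines of mouse 5 and metastasis replicate 7. Its log2 fold change was -0.09 (SE 0.30, edgeR adjusted p = 0.867), with 2 mice higher and 4 lower, and ran from -0.38 to 0.11 over the alternative fits. The difference within mice ran from -1.33 in mouse 2 to 1.67 in mouse 5.

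Ereg encodes epiregulin, which binds Egfr and Erbb4. The lowest, median and highest levels were 17.6, 26.5 and 94.5 coding TPM in metastasis lines, against 9.13, 21.8 and 36.7 coding TPM in tumor lines. Only metastasis replicates 4 and 5, both of mouse 5, exceeded every tumor line, at 78.7 and 94.5, and the other 7 metastasis lines lay within the tumor range. The log2 fold change was 0.42 (SE 0.36, edgeR adjusted p = 0.440), with 3 mice higher and 3 lower. An antisense gene, Gm19610, overlaps the Ereg start, and the sources used here do not say whether the counting used strand, so its reads may be mixed with those of Ereg.

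Hbegf encodes heparin-binding EGF-like growth factor, a ligand of Egfr and Erbb4. The lowest, median and highest levels were 37.3, 50.4 and 69.2 coding TPM in metastasis lines, against 39.0, 63.6 and 79.5 coding TPM in tumor lines. The groups overlapped, and the highest line was tumor replicate 5. Hbegf had a log2 fold change of -0.26 (SE 0.11, edgeR adjusted p = 0.123), with 2 mice higher and 4 lower. Epgn encodes epigen, a low-affinity ligand of Egfr, and was barely detected. Its counts summed to 65 over the metastasis lines and 33 over the tumor lines, with at most 15 in any line, and it was not tested. Metastasis replicate 4 and tumor replicate 2, the libraries with most ribosomal RNA reads, had 0 counts of Epgn.

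Epgn, Ereg, Areg and Btc are neighbours on chromosome 5. They lie within chr5:91027464-91402994, a window of 376 kb that holds 7 annotated genes, of which these 4 are the protein-coding ones. Between stages Btc passed, Ereg and Areg did not, and Epgn was too low to test, while differences between these genes were not tested. Levels of Areg and Ereg in log2 ran together over the 16 lines (Pearson r = 0.71), which share mice and the mouse 5 lines, whereas Areg and Btc had r = 0.45 and Ereg and Btc 0.52. These correlations describe the lines and were not tested. The median log2 fold change of the tested genes on chromosome 5 was 0.08.

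Within the summed ligand level, the share of Tgfa was lower and that of Btc higher in metastasis lines. Summed ligand levels averaged 263 ± 86.1 coding TPM in metastasis lines and 258 ± 58.9 coding TPM in tumor lines (SD, n = 9 and 7). Tgfa made up 12.6% ± 4.41 of the sum in metastasis lines and 25.2% ± 7.42 in tumor lines. Btc made up 20.5% ± 5.83 in metastasis lines and 9.85% ± 7.82 in tumor lines. These shares restate the 2 changes above and were not tested on their own. Areg, the largest share, took 32.8% ± 6.37 in metastasis lines and 32.6% ± 7.83 in tumor lines. It was the leading ligand in 8 of 9 metastasis lines and 5 of 7 tumor lines, and Hbegf led in metastasis replicate 2 and tumor replicate 5 and Tgfa in tumor replicate 3.

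**Figure D3:**
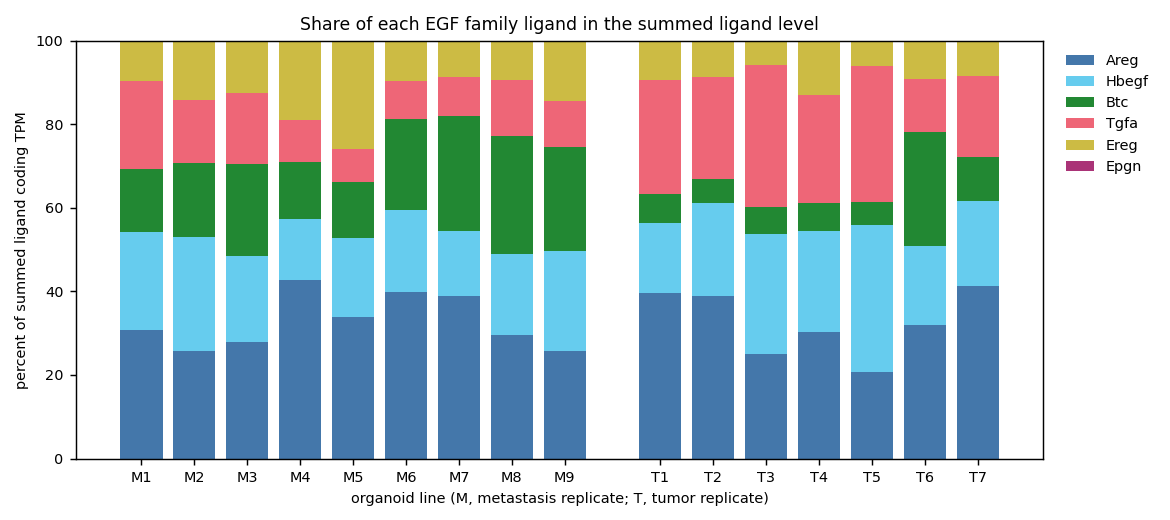
Percent of the summed ligand coding TPM (vertical axis) taken by each of 6 ligands in every line, metastasis lines M1 to M9 left of tumor lines T1 to T7. The Btc band is wider and the Tgfa band narrower in metastasis lines, and T6 has the widest Btc band of the tumor lines, at 27.2%.

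Btc exceeded Tgfa in 8 of 9 metastasis lines and in 1 of 7 tumor lines. The exceptions were metastasis replicate 1, with a Btc to Tgfa ratio of 0.705, and tumor replicate 6, with a ratio of 2.14. Over the 16 lines the log2 levels of the pair had Pearson r = -0.74, a value that contains the stage difference itself. Tumor replicate 7, from the same mouse as tumor replicate 6, lay on the side of the other tumor lines.

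**Figure D4:**
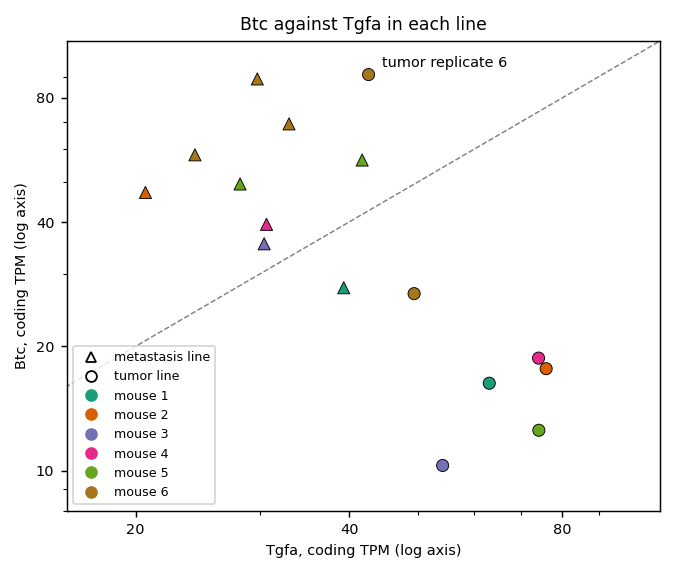
Btc against Tgfa level in each line, both in coding TPM on log axes, with triangles for metastasis lines, circles for tumor lines, colours for mice and a dashed line of equal levels. Among the metastasis lines 8 of 9 lie above the dashed line, and tumor replicate 6 is the single tumor line there.

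Among the receptors, Erbb2 and Erbb3 did not pass between stages and Erbb3 exceeded Erbb2, and Erbb2 exceeded Egfr, in all 16 lines. Erbb2 encodes HER2 and lies at chr11:98412470-98437716, 81.5 Mb from Egfr on the same chromosome. Its lowest, median and highest levels were 21.7, 30.5 and 42.6 coding TPM in metastasis lines, against 23.1, 26.5 and 34.9 coding TPM in tumor lines. The groups overlapped, with both the highest and the lowest line among the metastases. Its log2 fold change was 0.15 (SE 0.13, edgeR adjusted p = 0.444). The sign flipped with limma on deposited TPM, whose total still holds the ribosomal RNA reads. Erbb3 encodes HER3 and lies at chr10:128567523-128589652 on the minus strand. Metastasis lines held a lowest, median and highest level of 31.9, 43.1 and 73.9 coding TPM, against 31.2, 45.2 and 74.7 coding TPM in tumor lines. The ranges nearly coincided. The log2 fold change was 0.00 (SE 0.20, edgeR adjusted p = 0.991), with 3 mice higher and 3 lower, and ran from -0.14 to 0.12 over the alternative fits.

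Erbb3 lies on a chromosome whose genes were lower in metastasis lines as a whole, with a median log2 fold change of -0.22 over 734 tested genes of chromosome 10. Within mice 1 to 6 the chromosome 10 medians were -0.40, -0.40, -0.35, -0.57, 0.08 and -0.02 in log2 CPM. Erbb3 differed by -0.11, -0.52, 0.29, -0.27, 0.05 and 0.31 in the same mice, above its chromosome in 4 of the 6. The median of chromosome 11, which holds Egfr and Erbb2, was 0.00. Egfr made up 14.1% ± 5.03 of the summed receptor level in metastasis lines and 20.2% ± 3.78 in tumor lines (SD, n = 9 and 7). The sum itself averaged 93.4 ± 20.7 coding TPM in metastasis lines and 93.3 ± 17.5 coding TPM in tumor lines.

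No isoform percentage passed between stages, in a test that could hardly have called one. With adjustment over 11 isoforms, a single isoform at the smallest possible exact p could not have passed. An exact sign-flip test over the 6 mice, two-sided, was run on 11 isoforms, none of them of Epgn and 3 of them at 100% in every line, and none had an exact p under 0.05, where the smallest possible is 0.03125. Egfr-201, the full-length receptor of 1210 codons, took 42.8% ± 3.95 of Egfr transcripts in metastasis lines (n = 9) and 47.9% ± 5.87 in tumor lines (n = 7), with an exact permutation p = 0.125. Egfr-202, a shorter coding isoform of 655 codons, took 34.8% ± 5.85 in metastasis lines and 34.3% ± 4.88 in tumor lines. Noncoding Egfr-204 took 21.1% ± 8.37 and 14.1% ± 4.96 (exact permutation p = 0.219, n = 6 mice). These differences lay within the spread between lines. Egfr-204 is short, at 716 bases, and rested on only 6.11 to 63.4 expected counts a line. Its mean difference over mice was 7.08 points by isoform percentage and 0.86 points as a share of the gene's expected counts. Erbb2 was split between coding Erbb2-201, at 62.3% ± 6.00 in metastasis lines and 63.7% ± 2.85 in tumor lines, and noncoding Erbb2-202. Areg, Ereg and Erbb3 each had 1 isoform that took 100% in every line.

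Across metastatic sites no gene of the family passed the test of a difference. The test of equality over 5 sites called 0 of 15573 genes with edgeR, while 266 genes (1.71%) had an unadjusted p under 0.05 and none of them was among the 9. Set against tumor lines in the same fit, Tgfa had log2 fold changes of -1.31 in peritoneum (3 lines), -0.69 in diaphragm (2 lines), -0.82 in liver (2 lines), -1.25 in lung (1 line) and -0.52 in ovary (1 line). Every site was thus lower in sign, and the peritoneal value passed (SE 0.20, edgeR adjusted p = 0.0479), where 1.1% of all genes did. Btc had 1.46 in peritoneum, 1.34 in diaphragm, 0.42 in liver, 1.56 in lung and 0.46 in ovary, of which none passed. Egfr was lower in sign at every site, from -0.31 in liver to -1.06 in lung, and none passed. All sites are set against the same tumor lines, so their signs partly restate the stage comparison. The share of all genes tested with 1 sign at every site was not counted. Ereg was 2.05 in lung (SE 0.92) and 1.18 in diaphragm (SE 0.68), and did not pass there (adjusted p = 0.508 and 0.708). Mouse 5 gave the lung line and 1 of the 2 diaphragm lines. Sites and mice overlap, so that lung and ovary each stand for 1 line of 1 mouse. The 3 peritoneal lines are the only metastasis lines of mice 2, 3 and 4, and no other mouse gave one. A peritoneal difference therefore cannot be told apart from one of those mice.

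The test of differences between mice called 24 of 15573 genes (0.154%) and 0 of the 9. Without adjustment 2661 genes (17.1%) had p under 0.05, among them Btc (edgeR unadjusted p = 0.00964, adjusted p = 0.184) and Hbegf (unadjusted p = 0.0495, adjusted p = 0.291). Mouse 6 had the highest Btc levels in both stages.

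The rest of the family was sparse. Egf, the founding ligand, averaged 0.452 ± 0.162 coding TPM in metastasis lines and 0.439 ± 0.150 coding TPM in tumor lines, Nrg3 had no counts, and Erbb4, the remaining receptor, had 1 count in each group. Of 6 such genes 4 were tested, with 0 higher and 1 lower, against 6.59% and 9.92% of all genes tested, and a median log2 fold change of -0.57. Nrg1, a neuregulin that binds Erbb3 and Erbb4, had lowest, median and highest levels of 0, 0.164 and 6.67 coding TPM in metastasis lines, against 0.212, 4.67 and 6.91 coding TPM in tumor lines. Metastasis replicate 3 held 350 of the 392 metastasis counts, whereas tumor replicate 6 held 11 of the 1532 tumor counts. Nrg1 had a log2 fold change of -4.93 (SE 1.03, edgeR adjusted p = 0.0104), with 5 of 6 mice lower and mouse 4 higher, and passed in 31 of 34 alternative fits. The size of the estimate depended on the fit. It was -5.52 without tumor replicate 4 and -4.01 without tumor replicate 7, and without the mouse term it was -2.15 and did not pass (adjusted p = 0.197). With limma it was -1.19 on log2(TPM + 1) and -2.84 on log2(TPM + 0.1), and passed on both. Nrg2 and Nrg4 did not pass, with log2 fold changes of 0.98 (adjusted p = 0.149) and -0.88 (adjusted p = 0.0998).

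Of 10 genes that cut the ligands loose or assist it, 9 were tested, with 0 higher and 1 lower, against 6.59% and 9.92% of all genes tested and so near the background, and a median log2 fold change of 0.12 beside -0.02. Adam17, the main sheddase of Tgfa, Areg, Ereg and Hbegf, averaged 55.5 ± 5.83 coding TPM in metastasis lines and 58.0 ± 2.41 coding TPM in tumor lines (log2 fold change -0.05, edgeR adjusted p = 0.642). Adam10, the main sheddase of Btc and Egf, had a log2 fold change of 0.19 (adjusted p = 0.242). The gene that passed was Rhbdf2, or iRhom2, a partner that carries Adam17 to the surface, at -0.61 (edgeR adjusted p = 0.0392, lower in 6 of 6 mice), though it passed in 12 of 34 alternative fits and, with 1 line left out, only without tumor replicate 1, tumor replicate 6 or metastasis replicate 1.

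Of 13 genes listed under restraint of the receptors, all were tested, with 2 higher and 2 lower, against 6.59% and 9.92% of all genes tested. Their median log2 fold change was -0.01 beside -0.02 over all genes. Whether each of them, Lrig3 and Usp8 included, restrains the receptors in these lines was not tested. Lrig3, a leucine-rich repeat protein of the Lrig family, rose by 2.43 (SE 0.48, edgeR adjusted p = 0.00870, 6 of 6 mice). The lowest, median and highest levels were 8.35, 16.7 and 26.9 coding TPM in metastasis lines, against 0.619, 1.65 and 23.3 coding TPM in tumor lines, the tumor maximum again being tumor replicate 6, without which the log2 fold change was 3.06. Without the mouse term it was 1.74 and did not pass (adjusted p = 0.0906), and with limma on log2(TPM + 1) it was 1.76 and passed. Lrig1, a relative that promotes the breakdown of ERBB receptors, fell by 0.83 (SE 0.19, edgeR adjusted p = 0.0160, 6 of 6 mice), so that members of 1 family went opposite ways. The Lrig1 call was lost without tumor replicate 5 (adjusted p = 0.0620). Cbl, the ubiquitin ligase of activated Egfr, rose by 0.52 (edgeR adjusted p = 0.0187), and Ptprj, a receptor phosphatase, fell by 0.83 (edgeR adjusted p = 0.0284), a call that 21 of 34 alternative fits kept. The Cbl call was lost without tumor replicate 5 or metastasis replicate 9, and the Ptprj call without any 1 of tumor replicates 2, 4, 5 and 7 or metastasis replicates 3 and 9 (adjusted p up to 0.0590 and 0.0879). Errfi1, the feedback inhibitor Mig6, had 0.06 (adjusted p = 0.845).

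Of 15 adaptors and docking proteins, all were tested, with 1 higher and 1 lower, against 6.59% and 9.92% of all genes tested and so near the background, and a median of 0.15 beside -0.02. Shc1, an adaptor that links ERBB receptors to Grb2, rose by 1.44 (SE 0.30, edgeR adjusted p = 0.00970, 6 of 6 mice) and passed in all 34 alternative fits. The lowest, median and highest levels were 160, 204 and 333 coding TPM in metastasis lines, against 59.3, 63.8 and 205 coding TPM in tumor lines, and the groups overlapped through tumor replicate 6 alone. How many of all genes tested overlap through that line alone was not counted. Pik3r1, a regulatory subunit of PI3-kinase, fell by 0.50 (edgeR adjusted p = 0.0495) and passed in 9 of 34 alternative fits. With 1 line left out it passed only without tumor replicates 6 or 7 or metastasis replicates 7 or 8. Of 15 genes induced through ERK, all were tested, with 4 higher and 2 lower, against 6.59% and 9.92% of all genes tested, and a median of 0.20 beside -0.02 over all genes. Fosl1, an AP-1 factor, rose by 1.63 (edgeR adjusted p = 0.00945), Spry4 by 0.95 (adjusted p = 0.0450), Dusp5 by 0.69 (adjusted p = 0.0411) and Etv4 by 0.47 (adjusted p = 0.0247). Spry2 fell by 0.63 (adjusted p = 0.0103) and Spred1 fell by 0.51 (adjusted p = 0.0112), so feedback inhibitors of ERK stood on both sides. Spry4 and Dusp5 each passed in 12 of 34 alternative fits and Etv4 in 17. With 1 line left out, Spry4 passed only without tumor replicate 6 or metastasis replicates 6 or 7, Dusp5 only without tumor replicate 6 or metastasis replicates 4 or 8, and Etv4 only without a line of mice 5 or 6 other than tumor replicate 5.

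The calls were repeated without the mouse term and without the libraries that stood apart. Without the mouse term Btc, Nrg1 and Lrig3 were lost, as given above, and so were Ptprj (adjusted p = 0.0934), Dusp5 (0.231) and Spry4 (0.144). Without tumor replicate 6, all 17 genes named as called, Tgfa, Btc and Egfr among them, still passed. That fit called more of all genes tested, 3910 against 2571 in the main fit. The 17 were picked for being called in these same lines. Without metastasis replicate 4 and tumor replicate 2, both rich in ribosomal RNA, 5 of the 17 still passed, which were Tgfa, Shc1, Lrig1, Lrig3 and Spred1. The other 12 kept their direction, with adjusted p from 0.0506 for Spry2 to 0.174 for Pik3r1. That fit also called fewer of all genes tested, 794 against 2571 in the main fit. Tumor replicate 2 is the only tumor line of mouse 2, so that mouse no longer enters the contrast there.

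**Figure D5:**
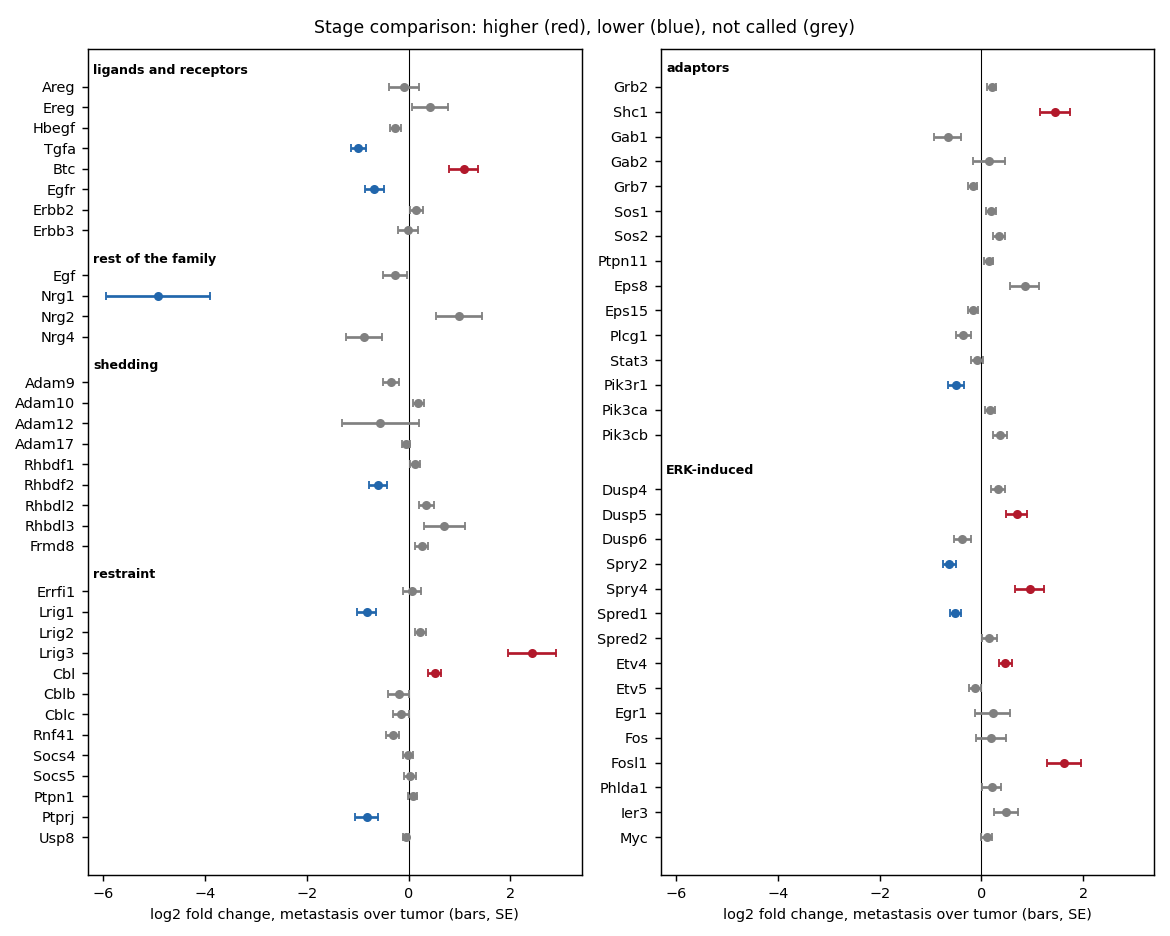
Log2 fold change of metastasis over tumor (horizontal axis, bars SE) for every tested gene of the family and of the 5 lists, with higher calls in red, lower calls in blue and genes not called in grey. Tgfa, Egfr and Nrg1 lie left of 0 and Btc, Lrig3, Shc1 and Fosl1 right of it, and most of the other genes lie near 0.

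The protein-coding genes whose levels ran closest to those of each ligand or receptor over the 16 lines were ranked by Pearson r of log2 TPM after removal of 3 ribosomal RNA genes. Tgfa ran with Polk (r = 0.95), a bypass DNA polymerase, Bbc3 (0.94), the apoptosis gene PUMA, and Aldh4a1 (0.93), a proline enzyme. Btc ran with Cysrt1 (0.97), Slc9a4 (0.97), a sodium-proton exchanger, and Pnp2 (0.96), a purine enzyme. Both sets contain the stage difference, since Polk had a log2 fold change of -1.28 and Slc9a4 of 3.37. Ereg ran with Krt16 (0.82) and Tigar (0.81), Areg with Pcsk6 (0.80), and Erbb3 with Kif13b (0.90). Krt16 lay near the floor, with a mean of 0.434 coding TPM. Egfr ran with Tmem127 at 0.92, which was 0.57 on the coding TPM scale. Erbb2 ran with Spint1 at 0.93 and Hbegf with Scyl2 at 0.86, which were 0.75 each on the coding TPM scale. All of these values rest on the same 16 lines from 6 mice and carry no test.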

How the data were processed

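RNA of 16 organoid lines was measured as total RNA depleted of ribosomal RNA, in stranded libraries, per the labels' protocols. Per the submitters' processing notes, FastQC 0.11.8, STAR 2.6.0c and RSEM 1.3.1 were used with build GRCm38.p6. Per the file headers, the deposited gene tables hold expected counts, which need not be whole, and TPM, and the deposited isoform tables hold the percent of a gene's transcripts per isoform. The strand setting of the counting is not given in the sources used here. RSEM shares reads among similar sequences. Of 55487 gene identifiers, 55394 were matched to GENCODE release M21.

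Expected counts were rounded to whole numbers. Stages were compared with edgeR 4.0.16 (R 4.3.3; quasi-likelihood test, TMM, filterByExpr by stage, terms for mouse and stage), with Benjamini-Hochberg adjustment over 15573 genes. Sites and mice were tested by F tests in the same tool. Same-numbered animals in the labels pair metastasis with tumor lines. To check this, log2 CPM deviations from the stage means correlated by 0.193 on average in 12 metastasis and tumor pairs of the same mouse and by -0.0497 in 51 pairs of different mice. The ranges overlapped, from -0.00991 to 0.569 and from -0.387 to 0.287. The highest value came from tumor replicate 6, so the means do not settle the pairing of each mouse. Only 6 animals stand behind the p-values, as several lines share a mouse. Isoform percentages were compared by an exact sign-flip test over 6 mice, for isoforms of at least 10% on average and gene counts of at least 20 in every line, with adjustment over 11 isoforms.

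Printed levels are deposited TPM rescaled over 21902 protein-coding genes. This scale was chosen after seeing the data, because the 3 genes planned as ribosomal RNA genes left CT010467.1 and Lars2 in the total. The genes studied, the 5 lists and the tests were chosen with earlier results of these data known. Genes named from the lists were up to 6 with the lowest p among those that passed, plus every gene of the rest of the family. Adam17, Adam10 and Errfi1 were named after their values were seen, as main members of their lists. The nearest 3 genes by Pearson r were ranked per gene, and those printed were chosen from them. GC box, TATAAA and p53 half-site searches were added after seeing the data. Scripts were tested on simulated data. Alternatives used DESeq2 1.42.0, limma 3.58.1 on log2(TPM + 1) and log2(TPM + 0.1), other filters and scalings, counts summed per mouse, and lines or mice left out. The limma fits used deposited TPM that was not rescaled, so ribosomal RNA reads stayed in the total.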

Additional observations from a re-analysis of the deposited data

How the results depend on the processing

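Tgfa kept its direction and its call in all 34 alternative fits of the stage comparison (adjusted p up to 0.0226), Btc kept its direction in all 34 and its call in 20 (adjusted p up to 0.143), and Egfr its direction in all 34 and its call in 15 (adjusted p up to 0.229). Mouse labels pair the lines, and with no replicate block 2219 genes were called, with 0 family members higher and 2 lower. Genes called numbered 3968 with DESeq2, 1184 with limma on log2(TPM + 1), 1305 with limma on log2(TPM + 0.1) and 794 without metastasis replicate 4 and tumor replicate 2, against 2571. Family members called were 0 higher and 1 lower with limma on log2(TPM + 1) and without those libraries, and 1 higher and 1 lower with limma on log2(TPM + 0.1) and with counts summed per mouse. In each of these fits the lower member was Tgfa, and Egfr was lost. Leaving out 1 line gave 1133 to 3910 genes, with 0 to 1 members higher and 1 to 2 lower, most genes without tumor replicate 6 and fewest without tumor replicate 5. Without mice 1 to 6 in turn, 1500, 1394, 1272, 1677, 766 and 2950 genes were called, with 1, 0, 0, 0, 0 and 1 members higher and 2, 1, 1, 1, 1 and 1 lower. The log2 fold change of Erbb2 changed sign with limma, to -0.01 on log2(TPM + 1) (-0.0105) and on log2(TPM + 0.1) (-0.0147), and passed in no fit. Both limma fits used deposited TPM, with the ribosomal RNA reads still in the total, unlike the coding TPM of the printed levels. The mouse comparison called 5 genes without mouse 6 and 31 with RLE size factors, and 0 family members in either. The site comparison called 0 genes in all its alternatives. The causes were not tested. Fits with fewer lines also have less power. The 34 fits are not independent. For mice 1 to 4, leaving out the tumor line, the metastasis line or the mouse gives nearly the same contrast. Tallies out of 34 count such fits repeatedly. Depth limits Epgn, with 0 to 15 counts a line, and all genes in metastasis replicate 4, where coding genes made up 17.4% of TPM.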
